A study of Homo sapiens with 22 samples.

Results

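Matrix metalloproteinases (MMPs) and their tissue inhibitors (TIMPs) were followed in melanoma cells that occupy either a drug-susceptible or a primed state, where primed means more likely to survive targeted therapy. The 10 genes are MMP1, MMP2, MMP3, MMP8, MMP14, MMP15, MMP16, TIMP1, TIMP2 and TIMP3. They were selected by symbol, with earlier results of these data known. All 10 are among the 33538 genes of the first single-cell table and the 36601 genes of the second and the third. MMPs are zinc-dependent proteases that cut collagens and other proteins of the extracellular matrix, and most are secreted as inactive precursors that other proteases, or MMPs held in the cell membrane, switch on. TIMPs bind the active site of the mature enzymes, and TIMP2 also helps MMP14 at the cell surface to activate pro-MMP2. In melanoma, these enzymes are known for their part in invasion and in the remodelling of the matrix.

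The study used single-cell RNA-seq and ATAC-seq on WM989 A6-G3 and WM983B E9-D5, human melanoma lines that had each passed through single-cell bottlenecks, so each is 1 clone. In the first experiment, WM989 cells carrying lineage barcodes were sorted into a mixed and an EGFR/NGFR-high population, expanded without drug and loaded over 8 wells, 4 in each of 2 replicates (12531 cells). The second experiment held 1449 untreated WM983B cells in 1 library. In the third, barcoded WM989 cells were sorted into a well, expanded and split over plates of 4 groups, which was done for 2 samples side by side: Control, TGFB1 (the ligand), TGFBRi (the TGF-β receptor inhibitor LY2109761) and PI3Ki (the phosphoinositide 3-kinase inhibitor GDC-0941), which gave 2 libraries a group (40021 cells). GEO's labels name the 2 libraries of a group Mix and Primed, the cells carry the replicate names r1 and r2, and which is which is not given in the sources used here, so r1 and r2 are treated as replicates, as the study's methods describe them. In the ATAC experiment, untreated WM989 cells were sorted by EGFR and NGFR staining, with 3 libraries each, into marker-negative cells (labelled Mix), NGFR-high cells, EGFR-high cells and cells high for both (EGFR/NGFR-high). Cell states and cluster numbers are the ones deposited with the cells. The labels of the cells do not say which well held which sort.

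Wells of the first experiment held 408 to 3841 cells and 35882876 to 177318308 UMIs (unique molecules counted), the WM983B library 102738398 UMIs, and the 8 treatment libraries 70239657 to 122420544 UMIs. Primed cells made up 56.9 to 79.7% of wells 1, 2, 5 and 6, and 6.85 to 9.42% of wells 3, 4, 7 and 8. In the first experiment 19 cell barcodes occurred in more than 1 well, and in the third 194 occurred in more than 1 library. Levels are given as CPM, the UMIs of a gene scaled to a fixed total of UMIs. The 7 melanocyte identity genes summed to 4882 CPM in drug-susceptible and 204 in primed WM989 cells, and the 4 primed markers (EGFR, NGFR, AXL, NT5E) to 29.3 and 316. The fibroblast list summed to 37.2 and 246 CPM with 5 of 7 genes above 1 CPM (COL1A2 and COL3A1 were under 1). The leukocyte list summed to 45.8 and 92.3 CPM, with CD68 alone of its 5 genes above 1, and the endothelial list to 0.498 and 25.3 CPM, with PECAM1 alone of its 3 genes above 1. Neither keratinocyte gene passed 1 CPM. In the first experiment the fibroblast, leukocyte and endothelial sums were thus higher in primed cells, as were 7 of the 10 members. In drug-susceptible and primed WM983B cells these sums were 102 and 86.2, 52.1 and 56.5, and 0.260 and 0.410 CPM. In the treatment experiment they were 29.2 and 218, 38.2 and 40.6, and 0.442 and 10.4 CPM. The part of other cell types in the members' levels was not tested.

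MMP1, MMP3 and MMP8 lie in the MMP cluster of chromosome 11, on the minus strand, at chr11:102789919-102798160, chr11:102835801-102843609 and chr11:102711796-102724954 in the GENCODE annotation of hg38. MMP2 and MMP15 lie on chromosome 16, plus strand, at chr16:55479198-55506691 and chr16:58025754-58046901, and MMP14 at chr14:22836585-22847758, plus strand. TIMP1 (chrX:47582436-47586789, plus strand), TIMP2 (chr17:78852977-78925387, minus strand) and TIMP3 (chr22:32801705-32863041, plus strand) are on 3 other chromosomes. TIMP1 lies within SYN1 and TIMP3 within SYN3 on the opposite strand, and WTAPP1 overlaps MMP1 and MMP3, so reads of such pairs can be told apart only by strand. The sequences printed here are those of regions upstream of MMP1, MMP2, MMP3 and MMP8 that had ATAC peaks in every EGFR/NGFR-high library and in at most 1 Mix library, and that lie outside exons. Each is the 200 bases around the peak summit, plus strand of hg38, with the AP-1 motif TGANTCA in capitals.
MMP1, chr11:102802477-102802676, in the region centred at -4378 bases from the start: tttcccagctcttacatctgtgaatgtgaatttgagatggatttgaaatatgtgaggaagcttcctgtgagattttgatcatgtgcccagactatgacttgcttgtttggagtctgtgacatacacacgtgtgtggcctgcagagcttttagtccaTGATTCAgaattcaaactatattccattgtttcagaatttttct
MMP2, chr16:55471527-55471726, in the region centred at -7570 bases from the start: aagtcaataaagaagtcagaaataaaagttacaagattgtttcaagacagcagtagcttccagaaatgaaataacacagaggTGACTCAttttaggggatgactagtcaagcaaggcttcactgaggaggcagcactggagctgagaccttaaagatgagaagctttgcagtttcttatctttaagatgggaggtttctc
MMP3, chr11:102851389-102851588, in the region centred at -7818 bases from the start: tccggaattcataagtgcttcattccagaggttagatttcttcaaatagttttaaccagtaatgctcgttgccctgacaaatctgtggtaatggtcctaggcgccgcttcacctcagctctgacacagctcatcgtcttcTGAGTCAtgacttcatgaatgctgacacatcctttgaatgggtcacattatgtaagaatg
MMP8, chr11:102728040-102728239, in the region centred at -3092 bases from the start: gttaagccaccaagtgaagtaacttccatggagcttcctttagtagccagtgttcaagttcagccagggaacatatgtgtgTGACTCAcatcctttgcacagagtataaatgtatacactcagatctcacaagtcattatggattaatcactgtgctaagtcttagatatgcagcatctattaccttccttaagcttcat

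Promoter sequences for 5 members (MMP8, MMP14, MMP15, TIMP1, TIMP3) came from RefSeq, build GRCh38.p14, and cover the 250 bases before the start. TIMP1 and TIMP3 are shown as the inhibitors that were higher in primed cells, and MMP15 as the member whose start was more enriched in ATAC of marker-high cells. In TIMP1 the capitals mark TGAGTAA, a variant AP-1 site, and in TIMP3 and MMP15 they mark the GC box GGGCGG on either strand.
TIMP1, chrX:47582186-47582435, plus strand: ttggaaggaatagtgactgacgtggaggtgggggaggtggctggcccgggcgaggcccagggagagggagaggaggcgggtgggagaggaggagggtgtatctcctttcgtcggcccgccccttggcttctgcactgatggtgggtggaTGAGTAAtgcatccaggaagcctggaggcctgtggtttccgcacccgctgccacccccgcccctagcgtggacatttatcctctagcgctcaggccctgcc
TIMP3, chr22:32801455-32801704, plus strand: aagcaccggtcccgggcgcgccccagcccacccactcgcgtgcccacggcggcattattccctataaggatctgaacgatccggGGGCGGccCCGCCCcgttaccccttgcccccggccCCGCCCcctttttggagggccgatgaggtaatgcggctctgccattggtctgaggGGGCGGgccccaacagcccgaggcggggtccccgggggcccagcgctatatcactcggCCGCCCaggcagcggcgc
MMP15, chr16:58025504-58025753, plus strand: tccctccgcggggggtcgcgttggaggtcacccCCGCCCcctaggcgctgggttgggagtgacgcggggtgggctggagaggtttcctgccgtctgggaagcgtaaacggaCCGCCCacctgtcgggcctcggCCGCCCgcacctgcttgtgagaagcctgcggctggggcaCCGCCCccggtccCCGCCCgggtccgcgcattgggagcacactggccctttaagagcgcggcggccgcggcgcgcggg
TGAGTAA begins at -101 bases from the TIMP1 start, and 2.21% of 35116 promoters hold it on either strand. TIMP3 and MMP15 hold 5 GC boxes each, and 42.6% of promoters hold at least 1. TGANTCA, which reads the same on both strands, is in 6.57% of promoters and in none of these 5.

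The first comparison set primed against drug-susceptible WM989 cells. In the sums over all wells, 7 of 10 members were more than 2 times higher in primed cells (MMP1, MMP2, MMP3, MMP14, MMP16, TIMP1, TIMP3), where 13.7% of the 13194 genes with at least 1 CPM in a state were (54.9% were higher by any amount). MMP15 was under 0.5 times the drug-susceptible level, as were 7.91% of those genes, and MMP8 and TIMP2 were moderately lower. All 7 were higher in primed cells in 8 of 8 wells. Because the states are clusters of these same counts, the differences are a description and carry no test. The 10 members were also chosen with earlier results of these data known. The count beside the share of all genes thus says nothing of the whole MMP and TIMP family. Each sorted culture was loaded over 2 wells, so part of the spread between wells is technical.

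Collagenases came first. MMP1, interstitial collagenase, had 13.7, 36.1 and 90.01 CPM in drug-susceptible cells and 1348, 2195 and 3951 in primed cells (lowest, median and highest of 8 wells). No primed value came near a drug-susceptible one, and the ratio of the summed levels was 90.5, with 24.1 to 268 within wells. In Control libraries of the treatment experiment MMP1 was lower in both states. It was at 0.352 and 0.695 CPM in drug-susceptible and 142 and 311 in primed cells there (r1 and r2). What lies behind this difference between experiments was not tested. In drug-susceptible cells MMP1 was 56.4, 72.3, 76.3 and 90.01 in the primed-rich wells 1, 2, 5 and 6 and 13.7 to 15.9 in the other wells. The level was thus higher where the well held more primed cells, and the part of free RNA or of the state calls in this was not tested. Over all wells, the 10% of the 9688 drug-susceptible cells with most MMP1 UMIs held 88.6% of them. The median drug-susceptible cell held 0 and the highest 816. MMP8, the neutrophil collagenase, had 9.75, 17.5 and 22.6 CPM in drug-susceptible and 7.12, 12 and 17.5 in primed cells. These ranges overlapped, the ratio of sums was 0.638, and MMP8 was lower in primed cells in every well but well 4.

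MMP2, a gelatinase that cuts denatured and basement membrane collagen, had 8.05, 14.96 and 31.4 CPM in drug-susceptible and 126, 169 and 206 in primed cells. Primed levels were above every drug-susceptible one, with a ratio of 13.9 for the sums and 5.43 to 18.6 within wells. MMP3, stromelysin 1, which activates other MMPs, had 0, 0.0918 and 1.94 CPM in drug-susceptible cells and 6.13, 18.4 and 69.9 in primed cells. The groups did not overlap, and the ratio of sums was 277, with 36.1 to 493 within wells. Drug-susceptible cells of wells 1 and 3 held 0 and 1 MMP3 UMIs, and these were set to 3 counts for the ratio. The 493, of well 3, is thus below the ratio of the observed counts. Without the 1% of primed cells that held the most MMP3 UMIs the ratio of sums was 64.8. Drug-susceptible cells of well 1 held no MMP3 UMI, which allows up to 0.173 CPM there. Primed Control cells of the treatment experiment held 1 MMP3 UMI in r1 (0.745 CPM) and 0 in r2. The limits of 3 counts were 2.24 and 1.21 CPM in those cells, so the primed levels of the first experiment were not seen there.

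**Figure D1:**
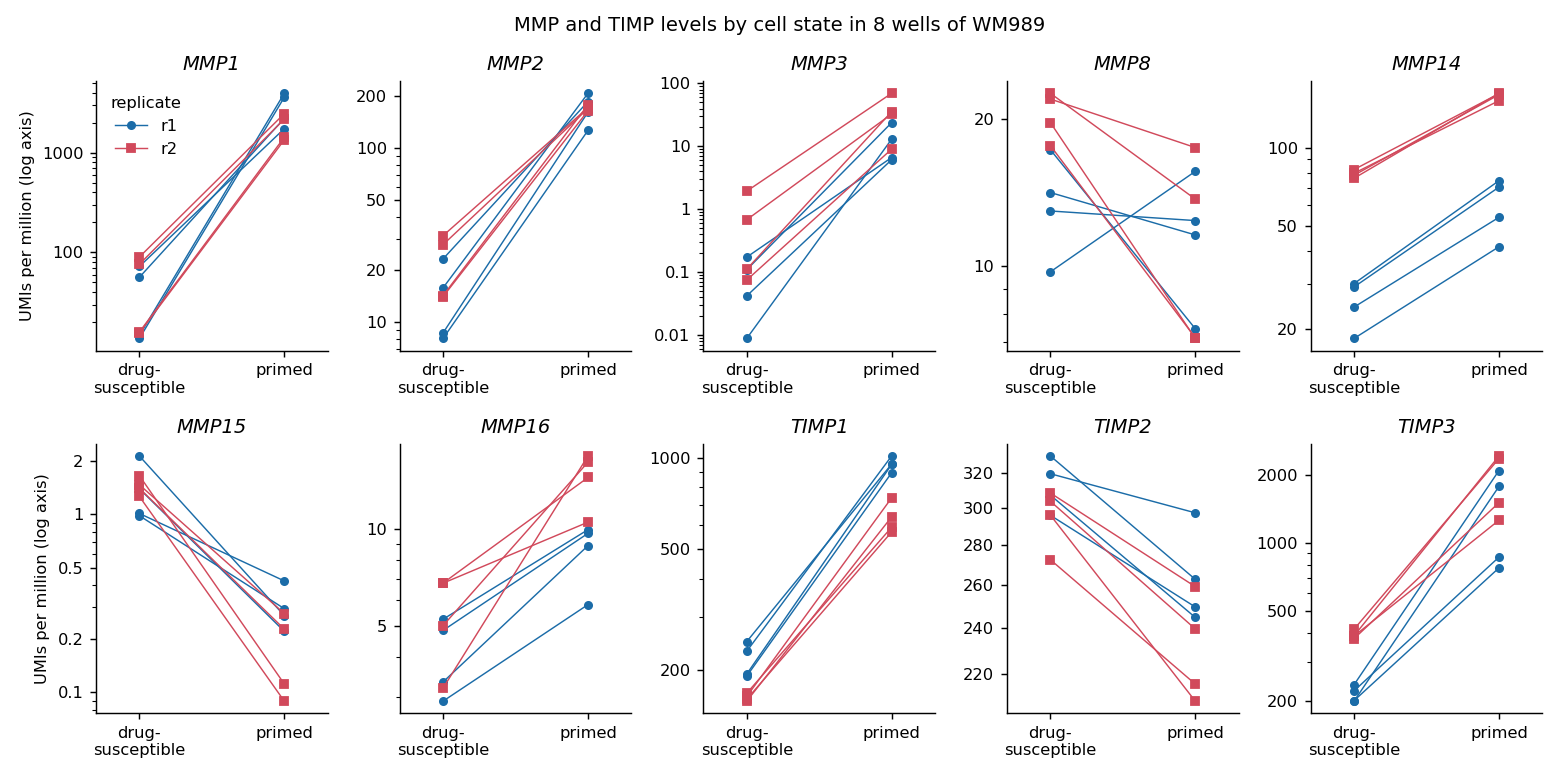
Level of each of the 10 genes (vertical log axis, CPM) in drug-susceptible and primed cells of the 8 WM989 wells of the first experiment. Each line joins the 2 states of 1 well, blue circles for replicate r1 and red squares for r2, and the well with no MMP3 UMI is drawn at its limit of 0.173. MMP1, MMP2, MMP3, MMP14, MMP16, TIMP1 and TIMP3 are higher at the primed end of all 8 lines, MMP15 and TIMP2 lower in all 8, and MMP8 higher in 1.

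The membrane-type MMPs differed among themselves. MMP14 (MT1-MMP), the main activator of pro-MMP2, had 18.5, 53.1 and 82.3 CPM in drug-susceptible and 41.6, 113 and 162 in primed cells, a ratio of 2.41 for the sums and 1.90 to 2.49 within wells. Those ranges overlapped only because the replicates differed, with sums of 23.3 (r1) and 77.5 (r2) in drug-susceptible cells and 57.8 and 157 in primed cells. MMP16 (MT3-MMP) had 2.92, 4.92 and 6.79 CPM in drug-susceptible and 5.82, 10.2 and 16.8 in primed cells. The MMP16 ratio was 2.70 for the sums and 1.55 to 5.25 within wells, with a median of 2.06. MMP15 (MT2-MMP) went the other way, with 0.984, 1.40 and 2.13 CPM in drug-susceptible and 0.0893, 0.248 and 0.423 in primed cells. Its ranges did not overlap, the ratio of sums was 0.167, and the primed sum rested on 41 UMIs.

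Inhibitors were split too. TIMP1, which inhibits most soluble MMPs, had 159, 179.9 and 249 CPM in drug-susceptible and 571, 816 and 1015 in primed cells, with a ratio of 4.25 for the sums and 3.52 to 4.89 within wells. TIMP3, the inhibitor that is bound to the matrix, had 201, 308 and 416 in drug-susceptible and 776, 1638 and 2414 in primed cells. The TIMP3 ratio was 6.98 for the sums and 3.24 to 8.83 within wells, with a median of 4.81. For both the lowest primed well was above the highest drug-susceptible well. TIMP2 had 272, 305 and 330.2 CPM in drug-susceptible and 209, 247 and 297 in primed cells, a ratio of 0.773, and was lower in primed cells in all 8 wells although the ranges overlapped. The replicates differed in opposite directions for these 2 genes: in primed cells TIMP1 was 961 in r1 and 624 in r2, and TIMP3 1672 and 2211.

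The share of cells with at least 1 UMI depends on depth, so cells were also thinned to 10000 UMIs each. After thinning, the share with MMP1 was 85.9% among primed cells and 8.32% among drug-susceptible ones, against 96.2 and 25.8% without thinning. For MMP2 the thinned shares were 73.3 and 10.3% (96.7 and 31.6% unthinned), for TIMP3 95.6 and 85.1% (99.3 and 99.1%) and for MMP3 4.54 and 0.0854% (13.5 and 0.640%). MMP8 went the other way, with 6.27% among primed and 13.6% among drug-susceptible cells (22.3 and 47.1%). Median depth was 58253 UMIs in primed and 52835 in drug-susceptible cells, and no cell was left out. MMP1 and MMP2 were found in the same cell, unthinned, in 93.1% of the primed state and 10.7% of the drug-susceptible state.

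Members also differed in how evenly primed cells carried them. For TIMP1 and TIMP2, 25.0 and 26.8% of the 2843 primed cells held 50% of the UMIs, for MMP2 21.8%, for TIMP3 14.8% and for MMP1 7.60%. For MMP3, 9 cells (0.317%) held that share. Primed cells with 20 or more MMP3 UMIs, a limit chosen after the values were seen, numbered 46 (1.62%) and held 84.9% of primed MMP3 UMIs. A fixed limit takes deep cells more readily: these cells had a median of 118854 UMIs over all genes, against 58253 in all primed cells, and the part of depth was not tested. They came from all 8 wells, 14 and 12 of them from wells 5 and 6, where the median depth over all cells was 111820 and 103992 UMIs, and 34 of them were in cluster 2. No drug-susceptible cell reached 20 MMP3 UMIs, while 98 of them reached 20 MMP1 UMIs. Without those 46 cells the primed MMP3 level was 5.09 instead of 32.8 CPM, still above the drug-susceptible 0.118. For MMP8, 4 primed cells of wells 2 and 7 passed the same limit and held 19.5% of the primed UMIs, 1 of them with 280.

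Across the 11 deposited clusters, primed clusters 2, 8 and 9 were the 3 highest for MMP1, MMP2, MMP3, MMP14, MMP16, TIMP1 and TIMP3 and the 3 lowest for MMP8, MMP15 and TIMP2, in the sum of both replicates. For MMP8 this did not hold in r1, where drug-susceptible cluster 4 was lowest at 8.69 CPM and primed clusters 9, 8 and 2 were at 9.98, 10.4 and 11.97. MMP1 was at 2326, 2085 and 1775 CPM in clusters 2, 9 and 8, followed by drug-susceptible cluster 10 at 147 and cluster 4 at 43.6. MMP2 was at 197, 153 and 134, followed by cluster 4 at 38.9 and cluster 10 at 13.5. In both replicates drug-susceptible clusters 10 and 4 thus held intermediate levels of MMP1, more of it in cluster 10, and cluster 4 an intermediate level of MMP2. MMP2 of cluster 10 was at 10.8 CPM in r1, beside 10.5 in drug-susceptible cluster 6, and at 22.8 in r2, where cluster 6 had 12.9. TIMP3 was at 2429 in cluster 2, 1353 in cluster 9 and 1057 in cluster 8, and at 209 to 348 in the drug-susceptible clusters. For MMP1 the order of the 3 primed clusters was 8, 9, 2 in r1 and 2, 9, 8 in r2. MMP15 was highest in cluster 4, at 2.67 CPM against 0.160 to 0.484 in the primed clusters.

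**Figure D2:**
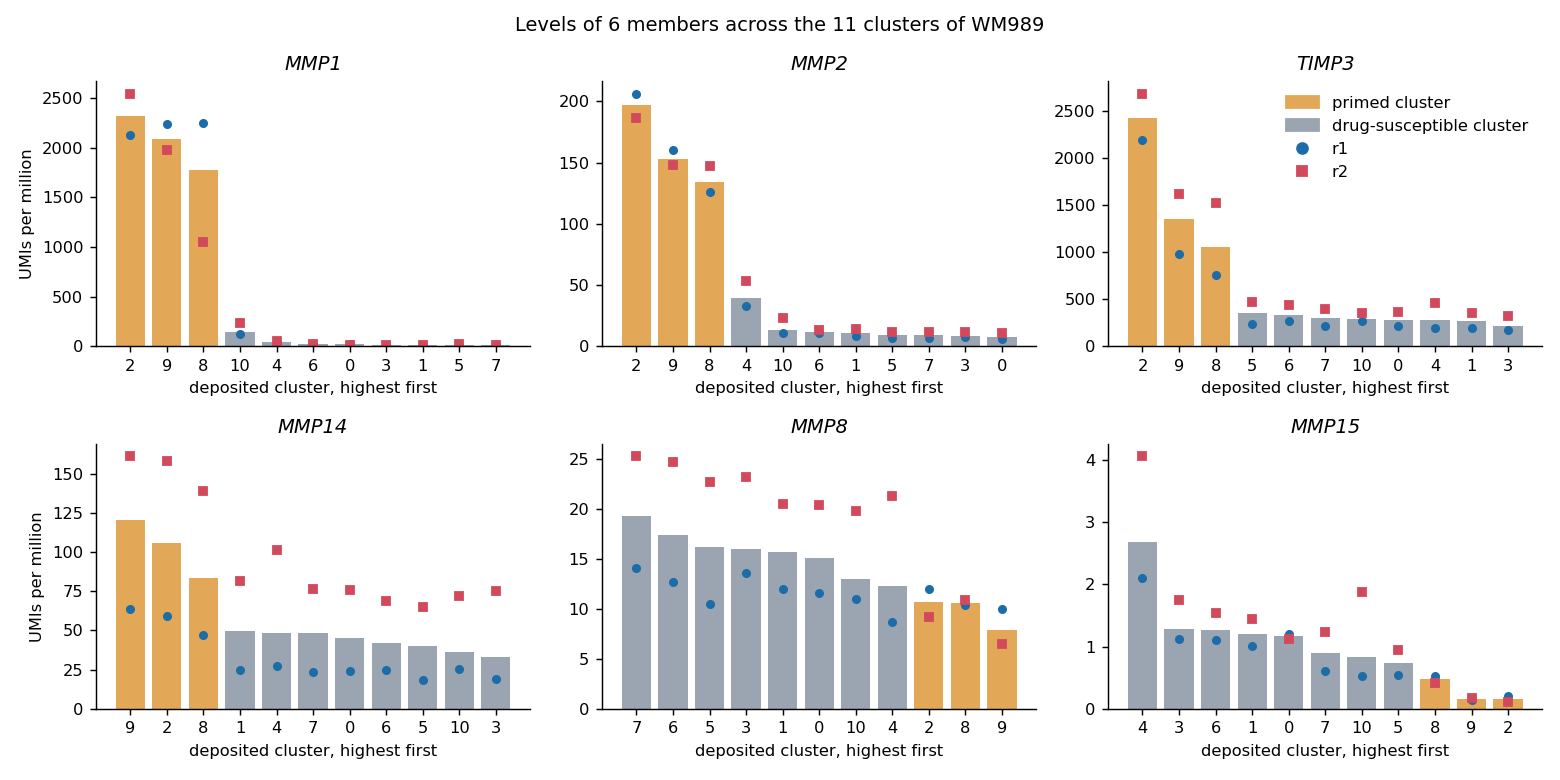
CPM (vertical axis) of MMP1, MMP2, TIMP3, MMP14, MMP8 and MMP15 in the 11 clusters deposited for the first WM989 experiment, ordered from highest to lowest. Bars are the sum of both replicates, orange for primed and grey for drug-susceptible clusters, and points give r1 and r2. Clusters 2, 8 and 9 are at the left for the first 4 genes and at the right for MMP8 and MMP15, and r2 lies above r1 in every cluster for MMP14.

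Within primed cells, levels by deposited cell cycle phase were 2314 (G1), 1741 (S) and 1902 (G2M) CPM for MMP1, in sums over all wells that carry no test. TIMP3 was also highest in G1, at 2155 against 1442 in S and 1370.2 in G2M. The genes whose log2 levels were most like a member's across the 11 clusters, of 9222 genes compared, were SCG2, RGS3 and PAG1 for MMP1 (r = 0.991 for SCG2) and FN1, TCTEX1D2 and IGFBP7 for MMP2 (r = 0.996 for FN1). For TIMP3 they were JAK1, JAM2 and RTN4 (r = 0.994 for JAK1), for TIMP1 they included GNAS and CLEC11A, and for MMP14 they were MYL6, ATG7 and SNX7. For TIMP2 they were PSAP, CD55 and ATP5PO, and for MMP8 STX6, MSI2 and PGM1. Clusters share wells and were called on these counts, so r is a description of 11 points.

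In WM983B, the second line, MMP1, MMP3 and MMP8 had no UMI in 731 primed or 718 drug-susceptible cells. This allows up to 0.0614 and 0.0557 CPM in the 2 states. Of the other 7 members, 5 were higher in primed cells (MMP2, MMP15, MMP16, TIMP1, TIMP3), where 60.1% of the 13769 genes with at least 1 CPM in a state were. There is 1 library and no replicate, so the intervals that follow are exact 95% intervals and cover counting error only.

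MMP2 was at 7.20 CPM in drug-susceptible and 12.6 in primed WM983B cells, a ratio of 1.76 (1.54 to 1.998). MMP16 was at 13.8 and 20.9, a ratio of 1.51 (1.38 to 1.67). TIMP1 was at 354 and 505, a ratio of 1.43 (1.40 to 1.45), and TIMP3 at 307 and 424, a ratio of 1.38 (1.35 to 1.41). None of the 7 exceeded 2 times, a size passed by 2.87% of genes, or lay under 0.5 times, as 1.37% did. TIMP2 was lower in primed cells, 177 against 208, a ratio of 0.854 (0.831 to 0.879), the same direction as in WM989. MMP15 was higher in primed WM983B cells, 13.3 against 10.1, with a ratio of 1.32 (1.17 to 1.48), the opposite direction to WM989. MMP14 was at 32.8 in primed and 34.8 in drug-susceptible cells, and its interval of 0.881 to 1.01 included equality. The 2 primed clusters differed: TIMP1 was at 851 CPM in cluster 2 (91 cells) and 452 in cluster 0 (640 cells), while MMP2 was at 4.65 and 13.9. Drug-susceptible clusters 1 and 3 had 340 and 440.1 for TIMP1 and 7.30 and 6.55 for MMP2, so cluster 2 had the highest TIMP1 of the 4. Its MMP2 was the lowest too, but rested on 30 UMIs, with an interval of 3.14 to 6.64. That interval overlapped those of cluster 3 (4.84 to 8.65) and cluster 1 (6.55 to 8.12).

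The third experiment asked how TGFB1, its receptor inhibitor and a PI3K inhibitor change WM989 cells. Counts summed over all cells of each library were tested with edgeR's quasi-likelihood test with the replicate as a term, and p-values were adjusted by Benjamini-Hochberg over all genes tested. MMP3, at 0 to 0.0687 CPM, did not pass the filter on low counts, and 9 members were tested. TGFB1 changed 6 of 9, where 29.0% of 18389 genes were called: MMP1, MMP2, MMP14, MMP15 and TIMP1 rose (16.3% of genes did) and MMP8 fell (12.7% did). Without the replicate term MMP8, MMP14 and MMP15 were lost. PI3Ki changed 4 of 9 (12.7% of genes called), and all 4 fell: MMP1, MMP2, MMP8 and TIMP3 (6.83% of genes fell and 5.83% rose). TIMP3 was lost without Control replicate 2 or PI3Ki replicate 2, and MMP1 and MMP8 without the replicate term. TGFBRi changed 5 of 9 (2.53% of genes called), with MMP15 and TIMP1 higher (1.09% of genes) and MMP8, MMP14 and TIMP3 lower (1.45%). Both of those rises missed the threshold without Control replicate 2, without TGFBRi replicate 2, with equal cell numbers and without the replicate term, and TIMP1 passed in only 5 of 13 alternatives. Of the falls with TGFBRi, TIMP3 was lost without either Control replicate and MMP14 without Control replicate 1, and without the replicate term no member was called. Other settings added a fall: TGFBRi called 4 members lower without the filter on low counts (399 of 29571 genes lower). It also called 4 lower with scaling by the total count (386 of 18389 genes lower). Fewer cells of a state and less RNA per cell cannot be told apart in these sums: primed cells made up 2.26 and 4.47% of Control, 29.1 and 31.3% of TGFB1, 2.26 and 4.32% of TGFBRi and 0.647 and 1.21% of PI3Ki libraries.

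Over all cells, MMP1 was at 2.79 and 10.3 CPM in Control, 25.4 and 50.6 in TGFB1, 1.81 and 6.57 in TGFBRi and 0.242 and 1.49 in PI3Ki (r1 and r2). Both TGFB1 libraries were above both Controls and both PI3Ki libraries below them, and r2 was above r1 in every group. The log2 fold change was 2.67 ± 0.15 (SE) for TGFB1 (edgeR adjusted p = 6.17e-12) and -2.71 ± 0.22 for PI3Ki (edgeR adjusted p = 1.88e-08). MMP2 was at 5.26 and 7.63 in Control, 67.4 and 68.7 in TGFB1, 4.73 and 7.88 in TGFBRi and 2.12 and 2.34 in PI3Ki. Its log2 fold change was 3.41 ± 0.12 for TGFB1 (edgeR adjusted p = 6.89e-16) and -1.43 ± 0.14 for PI3Ki (edgeR adjusted p = 5.59e-07), and the TGFBRi libraries lay 1 below and 1 above both Control libraries. MMP8 was lower in all 3 treatments, from 10.8 and 17.4 in Control to 7.42 and 11.9 in TGFB1, 8.07 and 10.5 in TGFBRi and 6.22 and 9.38 in PI3Ki. The replicates of MMP8 were further apart than some of the groups, and its calls rest on the replicate term.

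TIMP1 was at 225 and 217 CPM in Control, 383 and 347 in TGFB1, 255 and 273 in TGFBRi and 231 and 223 in PI3Ki. It rose by a log2 of 0.71 ± 0.07 with TGFB1 (edgeR adjusted p = 8.09e-08) and by 0.27 ± 0.07 with TGFBRi (edgeR adjusted p = 0.0467). TIMP3 was at 429 and 427 in Control, 391 and 373 in TGFB1, 340.1 and 329.8 in TGFBRi and 336 and 306 in PI3Ki. It was lower in both inhibitor groups, with log2 fold changes of -0.34 ± 0.07 for TGFBRi (edgeR adjusted p = 0.00583) and -0.32 ± 0.07 for PI3Ki (edgeR adjusted p = 0.0028), and with TGFB1 it missed the threshold at -0.18 ± 0.07 (edgeR adjusted p = 0.0522). MMP14 was at 36.4 and 37.9 in Control, 37.8 and 48.5 in TGFB1 and 26.9 and 30.4 in TGFBRi, where it fell by 0.36 on the log2 scale (edgeR adjusted p = 0.00526). Its rise with TGFB1 (0.20 ± 0.07, edgeR adjusted p = 0.0400) was larger in r2 and passed in 7 of 13 alternatives. MMP15, at 0.320 and 0.648 in Control, was at 0.838 and 1.34 with TGFB1 and 0.727 and 1.26 with TGFBRi. TIMP2 and MMP16 passed the threshold in no treatment. Scaling PI3Ki libraries by their total count instead moved the median of all genes from 0.00 to -0.10 on the log2 scale and the split from 1072 higher and 1256 lower genes to 560 and 2963, and added MMP14 and MMP16 to the members called.

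The same test on drug-susceptible cells alone called 7 of 9 members for TGFB1 (14.9% of 17914 genes called, 8.56% up and 6.32% down), 5 for TGFBRi (2.81%, 1.22% up and 1.59% down) and 4 for PI3Ki (12.1%, 5.89% up and 6.22% down). States come from the same counts, so these contrasts compare treatments among cells that the deposited clusters called drug-susceptible. MMP2 went from 3.66 and 5.04 CPM in Control to 31.8 and 27.3 in TGFB1, a log2 fold change of 2.76 ± 0.13 (edgeR adjusted p = 7.41e-13). MMP1 went from 0.352 and 0.695 to 1.64 and 2.83, a log2 fold change of 2.09 ± 0.24 (edgeR adjusted p = 8.68e-07). In both genes the TGFB1 libraries were above both Controls. Few drug-susceptible cells held any MMP1 UMI, 0.725% of them in Control and 2.51% in TGFB1 without thinning. The groups differed in the cluster that held the most of their drug-susceptible cells: cluster 3 held 3801 cells of TGFB1 and 115 of Control, and cluster 0 held 234 and 2971. Within cluster 3 MMP2 was at 51.4 CPM with TGFB1 and 48.4 in Control, within cluster 0 at 7.78 and 3.78, and within cluster 1 (1346 and 1557 cells) at 17.1 and 5.24. MMP1 was lower with TGFB1 within cluster 3 (3.24 and 16.5 CPM) and was at 1.44 and 0.430 within cluster 0. These sums of both libraries carry no test. TGFB1 libraries also held more primed cells than Control, and in the first experiment MMP1 of drug-susceptible cells was higher in the primed-rich wells. The part of the cluster makeup and of the primed cells in these differences was not tested. TIMP1 rose by 0.37 ± 0.08 on the log2 scale, MMP15 by 1.43 ± 0.23, MMP14 by 0.22 ± 0.07 and TIMP2 by 0.23 ± 0.07. Without the replicate term TGFB1 called only 3 members in drug-susceptible cells, all of them higher, with 1189 of 17914 genes called. MMP8 was lower (-0.29 ± 0.08), a call lost in DESeq2, without the replicate term and without Control replicate 2, TGFB1 replicate 1 or TGFB1 replicate 2. The MMP14 call held in 3 of 11 alternatives and that of TIMP2 in 6 of 11. TIMP3 differed by -0.03 ± 0.07 (edgeR adjusted p = 0.842). With PI3Ki the log2 fold changes that passed were -2.20 for MMP1, -1.2 for MMP2, -0.75 for MMP8 and -0.24 for TIMP3. TIMP3 was lost without either Control or either PI3Ki replicate, MMP1 also without PI3Ki replicate 2, and without the replicate term only MMP2 passed. With TGFBRi they were -0.59 for MMP8, -0.36 for MMP14, -0.37 for TIMP3, 0.997 for MMP15 and 0.29 for TIMP1. Neither rise passed without Control replicate 1, without Control replicate 2 or without the replicate term, and the MMP14 call was lost without Control replicate 1 and that of TIMP3 without Control replicate 2. MMP15 passed in 7 and TIMP1 in 5 of 11 alternatives, and without the replicate term no member was called.

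In primed cells, 8 members passed the filter, MMP3 and MMP15 being too low. TGFB1 changed 6 of 8 (13.3% of 10930 genes called), with MMP2 higher (6.21% of genes called up) and MMP1, MMP8, MMP14, MMP16 and TIMP3 lower (7.09% called down). TIMP3 moved most. It was at 1632 and 1455 CPM in Control, 349 and 329 in TGFB1, 1375 and 1332 in TGFBRi and 725 and 832 in PI3Ki. The TGFB1 and PI3Ki libraries were all below every Control and TGFBRi library, and log2 fold changes were -2.10 ± 0.13 for TGFB1 (edgeR adjusted p = 1.44e-16) and -1.02 ± 0.14 for PI3Ki (edgeR adjusted p = 3.11e-06). Different clusters held most primed cells of the 2 groups: cluster 10 held 248 of the Control cells, with TIMP3 at 1550.1 CPM, and cluster 4 held 3254 of the TGFB1 cells, with TIMP3 at 335. The 80 TGFB1 cells in cluster 10 had TIMP3 at 482, so the level was below that of Control within the same cluster too, in a sum of both libraries with no test. Cluster numbers of this experiment do not correspond to those of the first.

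MMP2 went from 96.9 and 88.5 CPM in primed Control cells to 173 and 184 with TGFB1, a log2 fold change of 1.04 ± 0.14 (edgeR adjusted p = 1.42e-07). By cluster it was at 88.4 CPM in cluster 10 of Control, 181.7 in cluster 4 of TGFB1 and 64.8 in cluster 10 of TGFB1, so within cluster 10 the level was not higher with TGFB1. Cluster 4 held 3254 primed cells of TGFB1 and 11 of Control, where MMP2 was at 148.9. With TGFBRi it was at 51.3 and 57.5, and fell by 0.74 on the log2 scale (edgeR adjusted p = 0.0193). This call was lost without either Control, either TGFB1 or either TGFBRi replicate, and without the replicate term. MMP1 was at 142 and 311 in primed Control cells, 96.1 and 184 in TGFB1, 89.99 and 162 in TGFBRi and 42.1 and 171 in PI3Ki. It was lower than Control within each replicate in all 3 treatments, with log2 fold changes of -0.59 ± 0.13 for TGFB1, -0.83 ± 0.15 for TGFBRi and -1.01 ± 0.18 for PI3Ki, although the groups overlapped across replicates. MMP8 went from 9.69 and 13.3 to 2.59 and 4.83 with TGFB1 (log2 fold change -1.54 ± 0.32), and MMP16 from 10.4 and 17.3 to 4.13 and 5.95 (-1.43 ± 0.28). MMP14 went from 61.1 and 66.0 to 35.6 and 51.3 (-0.46 ± 0.15, edgeR adjusted p = 0.0346). TIMP1 was at 568 and 698 in Control and 637 and 611 in TGFB1, with a log2 difference of 0.06 ± 0.12. TGFBRi and PI3Ki each changed 2 of 8 members in primed cells, all lower than Control, with 0.375 and 1.78% of genes called (0.302 and 1.32% down, 0.0732 and 0.467% up). The PI3Ki r1 sum rests on 25 primed cells. Without Control replicate 2, TGFB1 changed only MMP2 and TIMP3 of the 8 in primed cells and TGFBRi none, and TGFBRi changed none without TGFBRi replicate 2 or without the replicate term. Without the replicate term PI3Ki changed TIMP3 alone, and TGFB1 no longer changed MMP1 or MMP14. With TGFB1, DESeq2 called 1 member higher and 3 lower (665 of 17201 genes called). Without the filter on low counts edgeR called 1 higher and 4 lower (1522 of 24830). Fewer falls also passed without Control replicate 1 or either TGFB1 replicate.

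**Figure D3:**
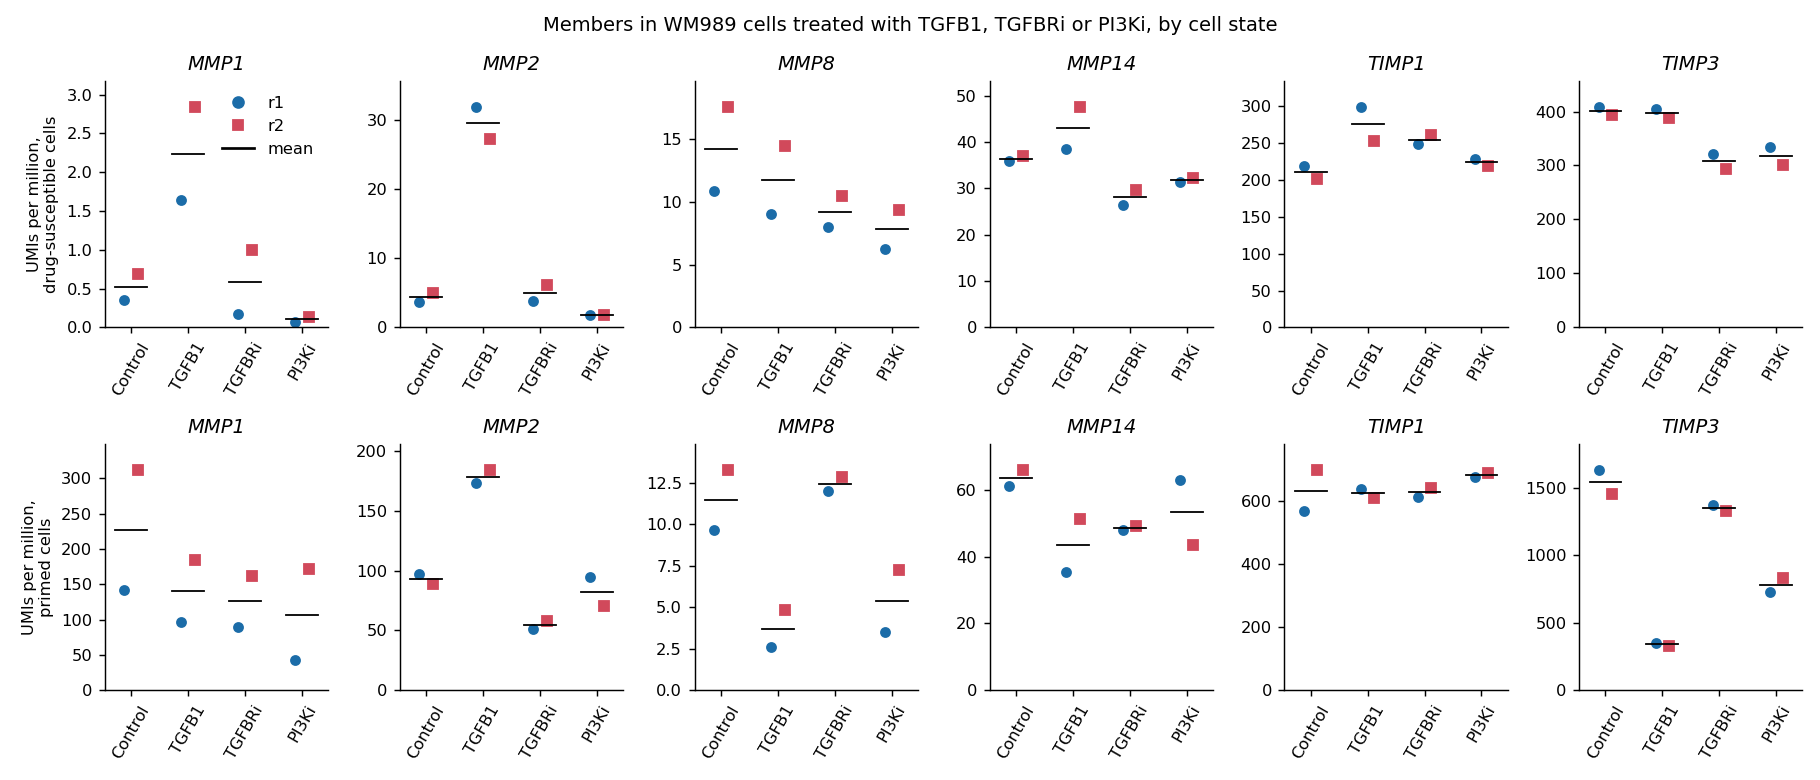
CPM (vertical axis, from 0) of MMP1, MMP2, MMP8, MMP14, TIMP1 and TIMP3 in drug-susceptible (upper row) and primed cells (lower row) of the 4 treatment groups. Points are the 2 libraries of a group, blue circles r1 and red squares r2, and the line is their mean. TIMP3 in cells called primed is at 1632 and 1455 in Control and at 349 and 329 in TGFB1, while MMP2 is higher with TGFB1 in both rows.

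The difference between states was itself tested, as the TGFB1 effect in primed minus that in drug-susceptible cells. States were called after treatment, so the test does not follow the same cells from Control to TGFB1. The difference passed the threshold for 7 of 10 members, all with a more negative effect in primed cells. Of 18502 genes 9.98% were called, 4.49% in that direction and 5.49% in the other. The log2 differences were -2.61 ± 0.19 for MMP1, -1.60 ± 0.13 for MMP2, -1.15 ± 0.28 for MMP8, -0.63 ± 0.13 for MMP14, -1.57 ± 0.29 for MMP16, -0.25 ± 0.09 for TIMP1 and -1.99 ± 0.09 for TIMP3. For MMP1, MMP14 and MMP16 the 2 effects had opposite signs, although that of MMP16 in drug-susceptible cells (0.20 ± 0.10) did not pass the threshold on its own, and for MMP2 both were positive. edgeR estimated no spread between genes beyond its trend here, which makes its p-values small, and limma with voom, added after these values were seen, called 5 of the 7: MMP1 (adjusted p = 0.00179), MMP2 (0.00184), MMP8 (0.0284), MMP16 (0.0132) and TIMP3 (1.95e-07). MMP14 (0.0527) and TIMP1 (0.203) missed the threshold in limma. Without Control replicate 2, edgeR called 3 (MMP1, MMP2 and TIMP3) and TIMP1 was at 0.03.

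**Figure D4:**
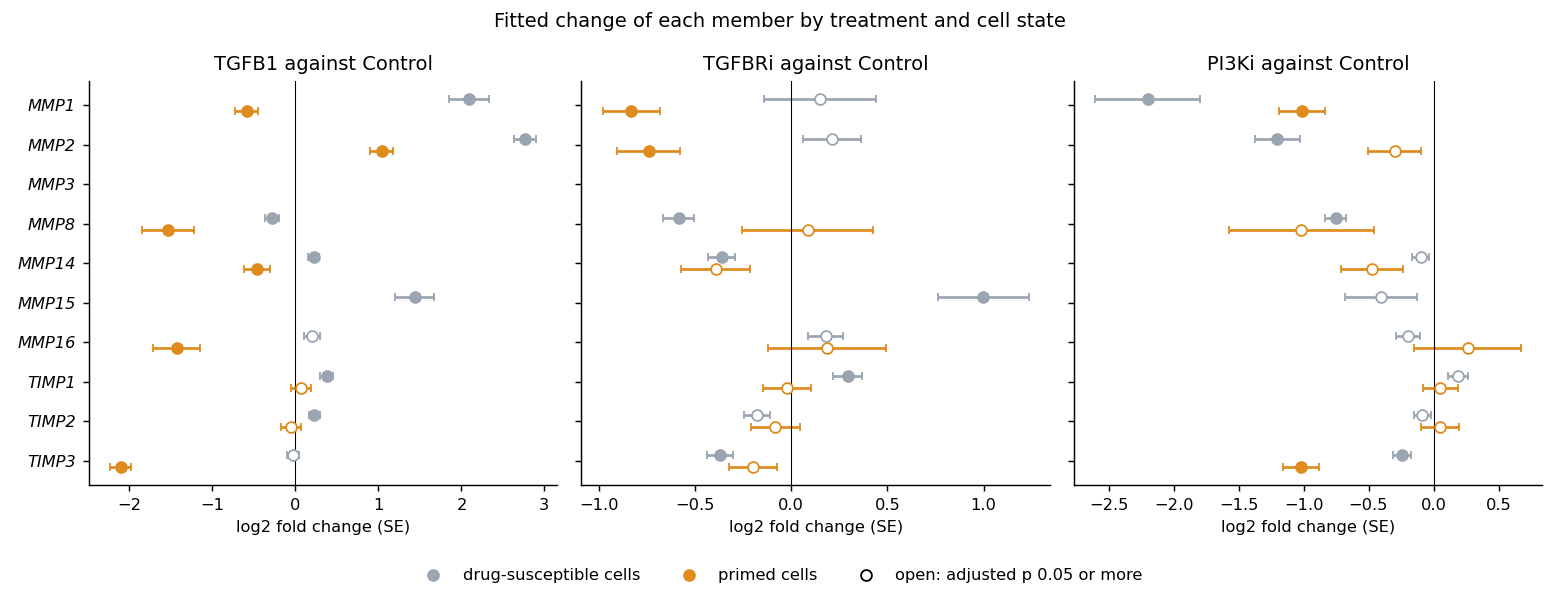
Fitted log2 fold change against Control (horizontal axis, with SE bars) of each gene in drug-susceptible cells (grey) and primed cells (orange) for TGFB1, TGFBRi and PI3Ki. Filled points have an adjusted p under 0.05 and open points do not, and MMP3 in both states and MMP15 in primed cells have no point because they did not pass the filter on low counts. With TGFB1, MMP1 is at 2.09 in drug-susceptible and -0.59 in primed cells, and TIMP3 at -0.03 and -2.10.

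Other genes of the same system were read from lists chosen by function, over all cells. Of the other MMPs and TIMP4, TGFB1 raised 3 and lowered 2 of 9 tested, with a median log2 fold change of 0.28 against 0.01 over all genes, of which 16.3% rose and 12.7% fell. MMP17 (-0.41) and MMP20 (-0.27) were the 2 that fell. Of 25 tested genes that activate, dock or clear MMPs, TGFB1 raised 14 and lowered 2 (median 0.62), and PI3Ki raised 0 and lowered 11 (median -0.21), where PI3Ki raised 5.83% and lowered 6.83% of all genes. Among the largest rises with TGFB1 were SPOCK1 (5.16) and THBS1, thrombospondin 1 (3.75), and A2M, a broad protease trap (-0.71), and CTSK, cathepsin K (-0.71), fell. With PI3Ki, SPOCK1 (-1.66) and the integrin subunit ITGB3 (-0.79) were among the largest falls. Of 20 ADAM and ADAMTS proteases TGFB1 raised 8 and lowered 3, the latter a share near the 12.7% of all genes, and PI3Ki raised 1 and lowered 5, ADAM9 (-0.50) and ADAM23 (-0.32) among them. Of 23 factors known to act on MMP promoters, TGFB1 raised 11 (16.3% of all genes rose) and lowered 3 (12.7% of all genes fell), led by SMAD7 (2.29), JUN (2.16) and RUNX1 (1.31), with ETV4 (-0.42), ETS1 (-0.36) and ETV5 (-0.31) lower. PI3Ki lowered 6 of the 23, JUN (-0.84), RUNX1 (-0.54) and FOSL1 (-0.52) most, and raised 3. TGFBRi, with 2.53% of all genes called, called 1 of 9, 2 of 25, 1 of 20 and 3 of 23 tested genes of these 4 lists in the order given.

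ATAC-seq gave a readout of chromatin at the same genes in cells sorted by surface markers rather than by RNA. Of 152014 regions with a peak in at least 3 of 12 libraries, 96 lay within a member or up to 10000 bases upstream of its start: 29 for MMP16, 23 for TIMP3, 11 for TIMP2, 8 for MMP2, 6 each for MMP8 and MMP14, 5 for MMP15, 4 for MMP1, 3 for MMP3 and 1 for TIMP1. The 43 with a peak in all 12 libraries were tested with limma on the log2 fold enrichment of the strongest peak, among 78272 such regions, and none of them belonged to MMP3. Against Mix, 4 member regions were higher and 3 lower in EGFR/NGFR-high cells (7.34 and 5.32% of regions), 4 higher and 0 lower in EGFR-high cells (4.0 and 1.81%), and 5 higher and 2 lower in NGFR-high cells (6.99 and 5.15%). Without centring each library on its median, the EGFR-high split was 2 higher and 2 lower among member regions, and 1491 higher and 4770 lower instead of 3134 and 1418 over all regions. With only the 50000 highest peaks of each library, 22 member regions were tested. Of these, 0 were higher in any sort, and 2, 3 and 4 were lower in EGFR/NGFR-high, EGFR-high and NGFR-high cells.

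The region centred at -8285 bases from the MMP2 start (chr16:55470375-55471451) had a fold enrichment of 7.17, 8.01 and 11.1 in Mix, 29.8, 18.0 and 24.3 in EGFR/NGFR-high, 15.4, 15.1 and 14.2 in EGFR-high and 22.3, 20.1 and 20.7 in NGFR-high libraries. All 9 marker-high libraries were above all 3 Mix libraries, and the log2 differences were 1.40 ± 0.18 (limma adjusted p = 0.000308), 0.98 ± 0.18 (limma adjusted p = 0.00693) and 1.26 ± 0.18 (limma adjusted p = 0.000778). The neighbouring region whose sequence is given above, at -7570 bases from the MMP2 start, had a peak in 3 of 3 EGFR/NGFR-high and 3 of 3 NGFR-high libraries and in 0 of 3 EGFR-high and 0 of 3 Mix libraries. MMP2 was also more enriched in an intron (centre 1297 bases after the start) in NGFR-high cells (0.57 ± 0.16, limma adjusted p = 0.0380), a call that was lost without any 1 of the Mix or NGFR-high libraries, EGFR-high replicate 3 or EGFR/NGFR-high replicates 1 or 3.

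At the MMP15 start (chr16:58025388-58026781) the fold enrichment was 6.27, 5.66 and 7.26 in Mix, 13.4, 11.3 and 14.4 in EGFR/NGFR-high, 8.96, 11.3 and 8.32 in EGFR-high and 14.3, 12.7 and 12.7 in NGFR-high libraries. All marker-high libraries were again above Mix, with log2 differences of 0.98, 0.76 and 1.03 ± 0.16 (limma adjusted p = 0.00132, 0.0127 and 0.00112), although MMP15 RNA was lower in primed cells of the first experiment. The EGFR-high call was lost without centring and without EGFR-high replicate 2 or Mix replicate 2. In the MMP16 introns 2 regions were lower in EGFR/NGFR-high cells (-0.90 and -0.72) and 2 higher (0.94 and 0.89). The call of -0.72 was lost without Mix replicate 1. An intron of TIMP2 was lower (-0.80 ± 0.21, limma adjusted p = 0.0200), a call lost without replicate 1 or 2 of EGFR/NGFR-high or of Mix.

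The starts of TIMP1, TIMP2, MMP14, MMP8 and MMP16 were not called in any sort. At the TIMP1 start fold enrichment was 33.6, 30.6 and 30.0 in Mix and 37.2, 33.6 and 37.7 in EGFR/NGFR-high libraries, a log2 difference of 0.15 ± 0.17 that missed the threshold, while TIMP1 RNA was 4.25 times higher in primed cells. At the TIMP3 start it was 33.2, 31.1 and 30.5 in Mix and 24.1, 26.9 and 18.4 in EGFR/NGFR-high libraries, a log2 difference of -0.52 ± 0.17 (limma adjusted p = 0.0683). At the MMP8 start all 12 libraries lay between 88.4 and 118. The MMP1 start had a peak in 2 of 3 Mix libraries (4.71 and 6.78) and in all 9 marker-high libraries, with 13.1, 8.98 and 12.4 in EGFR/NGFR-high.

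Listed peaks numbered 226349 to 271153 in EGFR/NGFR-high and 213412 to 227576 in Mix libraries, and the part of this in the counts that follow was not tested. Peaks in all 3 EGFR/NGFR-high and no Mix library occurred in 7 of 96 member regions, against 4.80% of all regions, and the reverse in 0 of 96, against 0.845%. The 7 were 1 region each of MMP1 (at -4378 bases from the start), MMP2 (-7570), MMP3 (-96), MMP8 (-3092) and TIMP3 (24868 bases into the gene) and 2 of MMP16. The MMP8 region had a peak in all 9 marker-high libraries, and in no Mix library, as did 0.857% of all regions. Its fold enrichment was 16.1, 6.62 and 12.4 in EGFR/NGFR-high, 4.70, 6.15 and 6.36 in EGFR-high and 9.94, 6.12 and 6.58 in NGFR-high libraries. The region at -7818 bases from the MMP3 start had a peak in all 9 marker-high and in 1 Mix library. MMP8 RNA was lower in primed cells in 7 of 8 wells, and which gene a region acts on was not tested.

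The AP-1 motif TGANTCA, marked in the 4 upstream sequences, was in the 200-base summit windows of 5 of those 7 member regions (71.4%) and 14 of the other 89 (15.7%). Over all regions 18.3% held it, and of the 7294 regions with peaks in every EGFR/NGFR-high and no Mix library 46.7% did. The count for members thus stands beside a high share in regions of the same kind, and it is a description without a test.

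**Figure D5:**
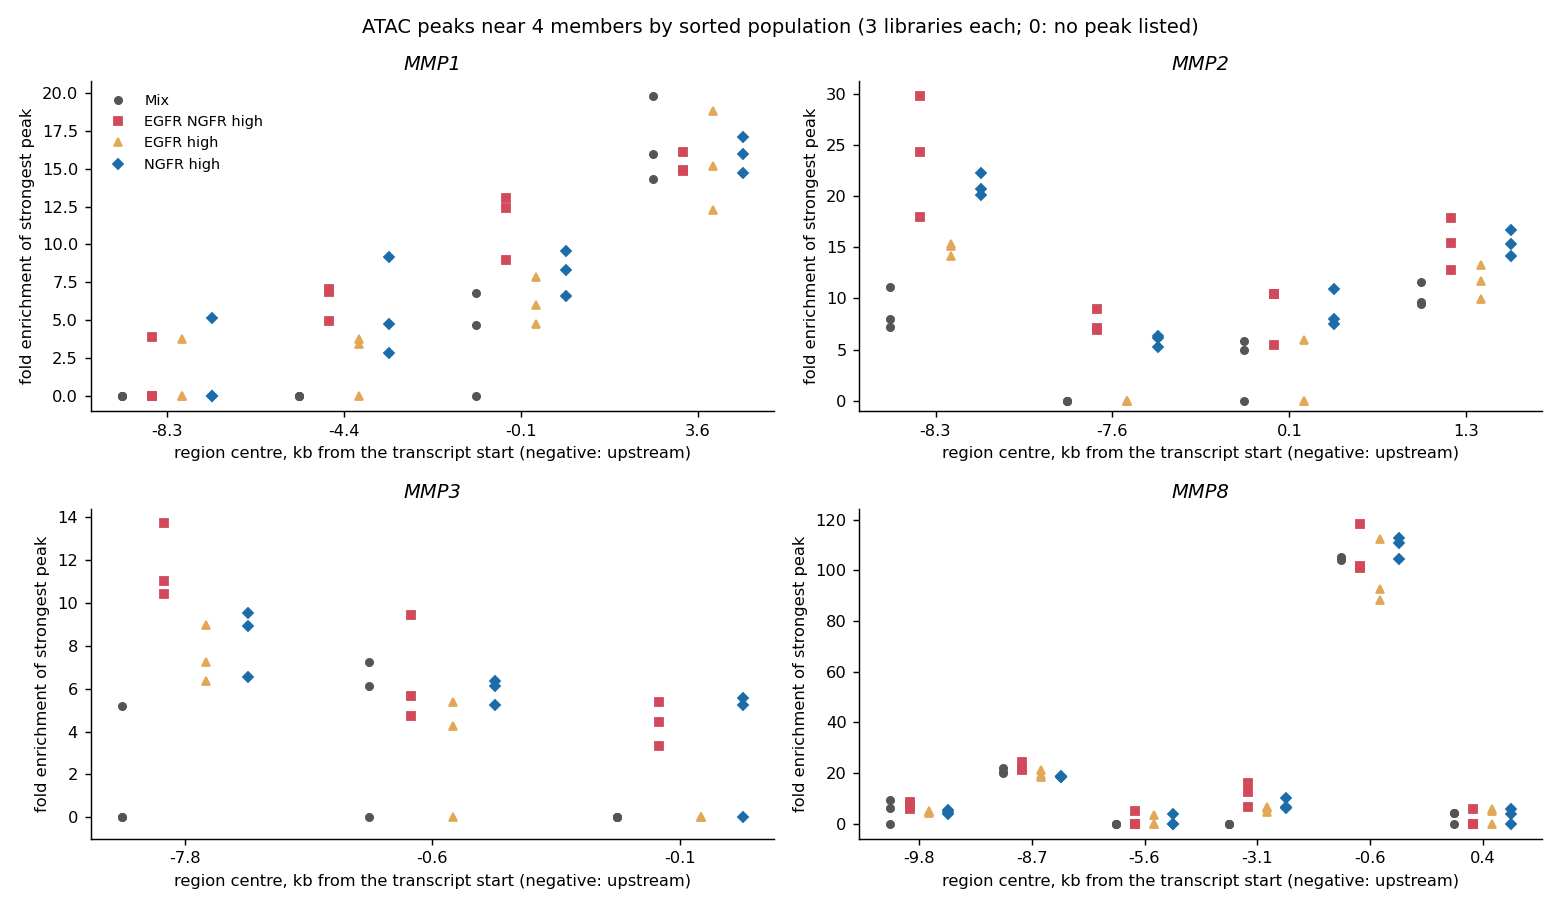
Fold enrichment of the strongest ATAC peak (vertical axis) in each region from 10 kb upstream to 5 kb downstream of the start of MMP1, MMP2, MMP3 and MMP8, placed by the distance of the region's centre from the start (horizontal axis, regions evenly spaced). Points are the 3 libraries of each sorted population, and 0 means that no peak was listed. All marker-high points lie above Mix at -8285 bases from the MMP2 start and at -3092 from the MMP8 start, and the points overlap at the MMP8 start.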

How the data were processed

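The members and lists were chosen with earlier results of these data known. Counts of UMIs per gene and cell were deposited as made by the authors with Cell Ranger on hg38, without depth normalization, with states, clusters and cell cycle phases set in Seurat. For the ATAC libraries the authors listed peaks per library from Bowtie2 2.3.4.1, SAMtools 1.1 and MACS2 2.1.1.20160309 (submitters' processing notes), and the deposited values are the fold enrichment of a summit and its −log10 q.

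Counts were summed by library, state or cluster and given as CPM. Treatments were tested with edgeR 4.0.16 (quasi-likelihood, TMM, replicate as a term, adjusted p under 0.05, R 4.3.3) on genes past edgeR's filter on low counts. Libraries of 1 replicate name deviated together (correlations 0.239 to 0.371 for every pair), so the name pairs them. The replicates are 2 samples of 1 clonal line carried side by side from the sort on, per the study's methods. The replicate term takes out the difference between those samples. The p-values thus measure how far the treatment differences varied between them, with the spread moderated over genes. Peaks were merged over libraries into regions found in at least 3 of 12, and log2 fold enrichment was tested with limma 3.58.1 in regions found in all 12, each library centred on its median. Same-numbered ATAC libraries of different sorts correlated at -0.000281 to 0.174 and differently numbered ones at -0.157 to 0.0404. The main limma fit held no replicate term, and a fit with it is among the alternatives. On simulated data at the treatment libraries' sizes, 93 of 100 genes changed by a log2 of 1 and 27 of 100 changed by 0.5 were called, with 7 false calls among 18203 genes. The limma step recovered 195 of 200 changed regions, also in simulated data. These counts hold for the settings of the simulations. How far they carry over to the deposited libraries, or to members with few UMIs, was not tested. Depth was 35882876 to 177318308 UMIs a well in WM989 and 70239657 to 122420544 a treatment library; intervals and limits of 3 counts cover counting error only.

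All 10 members are named. Genes of like pattern are the 3 with the highest r of log2(CPM + 1) over clusters, and each list gives the 3 largest changes in each direction past the threshold with a mean of at least 5 CPM. Some genes that this rule names are not reported here. Alternatives were DESeq2 1.42.0, limma with voom (added after seeing the data), total count scaling, no filter, no block, equal cells, leaving out each library, other thinning depths, the 50000 highest peaks and no centring. Doublets were not called here, since the study filtered cells on gene number before deposit.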

Additional observations from a re-analysis of the deposited data

Results flagged for a closer look

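Well 6 stood apart from the other 7 wells for MMP3. Its drug-susceptible cells had 1.94 CPM where the next well had 0.680, and its primed cells had 69.9 CPM where the next had 35.6. Of 20 groups of 8 wells examined, 2 stood apart this way, and chance gives about 1 in 20. Primed cells with 20 or more MMP3 UMIs numbered 12 in well 6, 1 of them with 673 UMIs.

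In edgeR, 9.98% of 18502 genes were called in the test of the TGFB1 effect between states. The effect of TGFB1 differed between cells called primed and cells called drug-susceptible for 7 members in edgeR, each by the test of the difference itself. States were called after treatment, so cells that switched state with TGFB1 count in their new state. In limma with voom 5 of them passed, without MMP14 (adjusted p = 0.0527) and TIMP1 (0.203), and without Control replicate 2 edgeR called 3 (MMP1, MMP2 and TIMP3) and TIMP1 turned to 0.03. The log2 differences were -2.61 for MMP1, -1.60 for MMP2, -1.15 for MMP8, -0.63 for MMP14, -1.57 for MMP16, -0.25 for TIMP1 and -1.99 for TIMP3. Primed cells of Control were mostly in cluster 10 and those of TGFB1 mostly in cluster 4, and the part of that difference in these values was not tested.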

How the results depend on the processing

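The 7 WM989 members higher in primed cells were 7 of 10 under every alternative run and without each well (7 to 7). Without the 1% of primed cells with most UMIs of the gene, the MMP3 ratio was 64.8. No replicate block gave 3, 0 and 2 members called for TGFB1, TGFBRi and PI3Ki over all cells (6, 5 and 4 with it) and 40 and 649 genes for the last pair. In drug-susceptible cells it gave 3, 0 and 1 members and 1189, 47 and 570 genes, and in primed cells 0 and 1 members and 9 and 87 genes for TGFBRi and PI3Ki. No filter on low counts gave 748 genes for TGFBRi, total count scaling 3523 for PI3Ki, and equal cells 3 members for TGFBRi, with 374 of 17643 genes called. DESeq2 gave 321 (TGFBRi) and 1434 (PI3Ki) genes in drug-susceptible and 665 (TGFB1) and 15 (TGFBRi) in primed cells, and limma with voom 1070 genes for the difference between states. In ATAC, the replicate block gave 7 EGFR-high member regions, all higher (3772 higher and 1931 lower over all 78272 regions). For EGFR/NGFR-high it gave 6 higher and 4 lower member regions (6396 and 4845 over all regions), and for NGFR-high 5 and 2 (6221 and 4673). The 50000 highest peaks leave fewer regions to test, 22 of members among 22726. For EGFR/NGFR-high, EGFR-high and NGFR-high, 2, 3 and 4 member regions were then lower and 0 higher in each. Over all regions 2403, 1716 and 2323 were called, of which 1274, 806 and 1064 were higher and 1129, 910 and 1259 lower. The cause of each change was otherwise not tested.

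Leaving out 1 library at a time, over all cells TGFB1 called 3164 to 6377 genes and 5 to 7 members, TGFBRi 168 to 1146 and 2 to 6, and PI3Ki 719 to 3298 and 3 to 4. In drug-susceptible cells the ranges were 988 to 3722 and 4 to 7, 206 to 1247 and 2 to 6, and 632 to 3286 and 2 to 5. In primed cells they were 584 to 1726 and 2 to 6, 17 to 63 and 0 to 2, and 96 to 239 and 2 to 2. The difference between states gave 825 to 1246 genes and 3 to 7 members. Without Control replicate 2, TGFBRi called fewer members over all cells and in drug-susceptible cells, and TGFB1 fewer in drug-susceptible cells. Fewer of all genes were called in these fits too. Without Control replicate 1, TGFBRi again called fewer members in both sets. In drug-susceptible cells TGFB1 called fewer without either TGFB1 library, and PI3Ki fewer without PI3Ki replicate 2. Here too fewer of all genes were called. ATAC ranges were 6 to 9, 2 to 6 and 4 to 8 member regions and 5568 to 10216, 1649 to 4669 and 4555 to 9683 regions for EGFR/NGFR-high, EGFR-high and NGFR-high.

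Signs turned only for values that were small or not called, apart from TIMP1 in the difference between states (-0.429 to 0.0257 without 1 library, the latter without Control replicate 2). In WM983B the share of cells with a UMI was compared as primed minus drug-susceptible. The difference was -1.68 percentage points for MMP15 without thinning (4.28 with it) and 1.43 for TIMP3 thinned to 10000 UMIs (-0.0877 in the main setting). MMP1 with TGFBRi in drug-susceptible cells was -0.0067 in DESeq2. Without a filter, primed TIMP2 was 0.0368 with TGFB1, and TIMP1 and TIMP2 were -0.0021 and -0.0026 with PI3Ki. Without 1 library, all-cell MMP16 with TGFB1 ranged over -0.0920 to 0.16 and MMP2 with TGFBRi over -0.35 to 0.24, and in drug-susceptible cells with TGFBRi MMP1 over -1.11 to 0.60 and MMP2 over -0.17 to 0.51. In primed cells the ranges were -0.0700 to 0.21 (TIMP1) and -0.12 to 0.0065 (TIMP2) with TGFB1, -0.17 to 0.77 (MMP16), -0.10 to 0.47 (MMP8) and -0.12 to 0.10 (TIMP1) with TGFBRi, and -0.71 to 0.0580 (MMP14), -0.0687 to 0.16 (TIMP1) and -0.0282 to 0.0858 (TIMP2) with PI3Ki. MMP3 did not pass the filter on low counts in the treatment comparisons of all, drug-susceptible or primed cells, and primed PI3Ki replicate r1 holds 25 cells.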
